A study of Mus musculus with 47 samples.

Results

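Aminoacyl-tRNA synthetases are the enzymes that attach each amino acid to its transfer RNA. The 36 genes described here were taken by symbol from 4 tables of raw counts, 20 coding for cytosolic enzymes and 16, with symbols ending in 2, for mitochondrial ones. They are 36 of the 26583 gene symbols that the 4 tables share, and the rule uses no measured value. Transcripts were measured by 3' tag sequencing of total RNA from dissected inguinal white adipose tissue (IWAT, a subcutaneous fat depot), interscapular brown adipose tissue (BAT, a heat-producing fat depot), liver and gastrocnemius muscle.

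The tissues came from 12 male mice of the inbred strain C57BL/6J. A methionine-restricted diet (MR) was given to 6 of them and a control diet (Control) to the other 6, for 11 weeks from the age of 5 weeks. All were kept at 23 C, ate ad libitum and were fasted for 5 h before the tissues were taken. Each tissue gave 6 MR and 6 Control libraries, except gastrocnemius with 5 MR and 6 Control libraries, so that 47 libraries were compared.

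Every amino acid needs its own synthetase activity, and most are charged by separate enzymes in the cytosol and in mitochondria, both encoded in the nucleus. An uncharged transfer RNA activates the kinase GCN2, which phosphorylates eIF2alpha and raises translation of the transcription factor ATF4. Many cytosolic synthetase genes are known targets of ATF4 in mammalian cells, whereas the mitochondrial enzymes serve the synthesis of respiratory chain subunits inside the organelle. Gars (glycine) and Kars (lysine) each give both a cytosolic and a mitochondrial enzyme in mammals, and Eprs carries the glutamate and the proline activity in one protein. Mars and Mars2 charge methionine, the amino acid that the diet limits.

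Library totals ran from 4887004 to 13117537 counts, so that 3 counts, the limit that a count of 0 allows, correspond to 0.207 to 0.76 CPM, which covers counting error only. CPM, the depth-scaled unit of tag counts, was computed within each tissue with TMM factors, also for this limit. In 43 libraries the median Spearman correlation with the other libraries of the tissue lay between 0.857 and 0.972. The other 4 stood apart at 0.582 to 0.719, namely MR3116, CON3106 and CON3115 in IWAT and MR3101 in gastrocnemius, where the number is the animal. Results in these 2 tissues are therefore given with and without them. Markers of each tissue were found in it, at summed levels of 24620 to 120670 CPM for white adipocyte markers in IWAT, 2160 to 6933 CPM for brown adipocyte markers in BAT, 89809 to 263190 CPM for hepatocyte markers in liver and 25828 to 170820 CPM for muscle fibre markers in gastrocnemius. White adipocyte markers also summed to 16805 to 36682 CPM in BAT, and brown adipocyte markers to 1334 to 3178 CPM in MR IWAT. Neither sum alone separated the 2 fat depots. All tissues are bulk samples, in which fewer cells of a type and less RNA per cell cannot be told apart.

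With edgeR's quasi-likelihood test and Benjamini-Hochberg adjustment over all genes tested, none of the synthetases passed an adjusted p of 0.05 for MR against Control in any tissue. Of the genes tested, 0.027% were called in IWAT (3 of 11101), 1.11% in BAT (120 of 10791), 2.26% in liver (248 of 10969) and 0.0% in gastrocnemius (0 of 11225). The filter on low counts kept all 36 synthetases in BAT, liver and gastrocnemius and 34 in IWAT, where Aars (cytosolic alanine) and Tars2 (mitochondrial threonine) were too low to be tested. At an unadjusted p under 0.05 the synthetases numbered 1 of 34 in IWAT, 4 of 36 in BAT, 8 of 36 in liver and 2 of 36 in gastrocnemius. Over all genes the share at that unadjusted threshold was 8.78% in IWAT, 13.6% in BAT, 14.5% in liver and 6.32% in gastrocnemius. DESeq2 called 1 synthetase in IWAT (Tars2), 1 in BAT (Mars2), 2 in liver (Rars and Yars) and 0 in gastrocnemius. Over all genes with an adjusted p, DESeq2 called 2.25% in IWAT, 2.75% in BAT, 3.71% in liver and 0.0% in gastrocnemius. The individual values that follow are therefore differences with their errors, most of which did not pass the test.

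**Figure D1:**
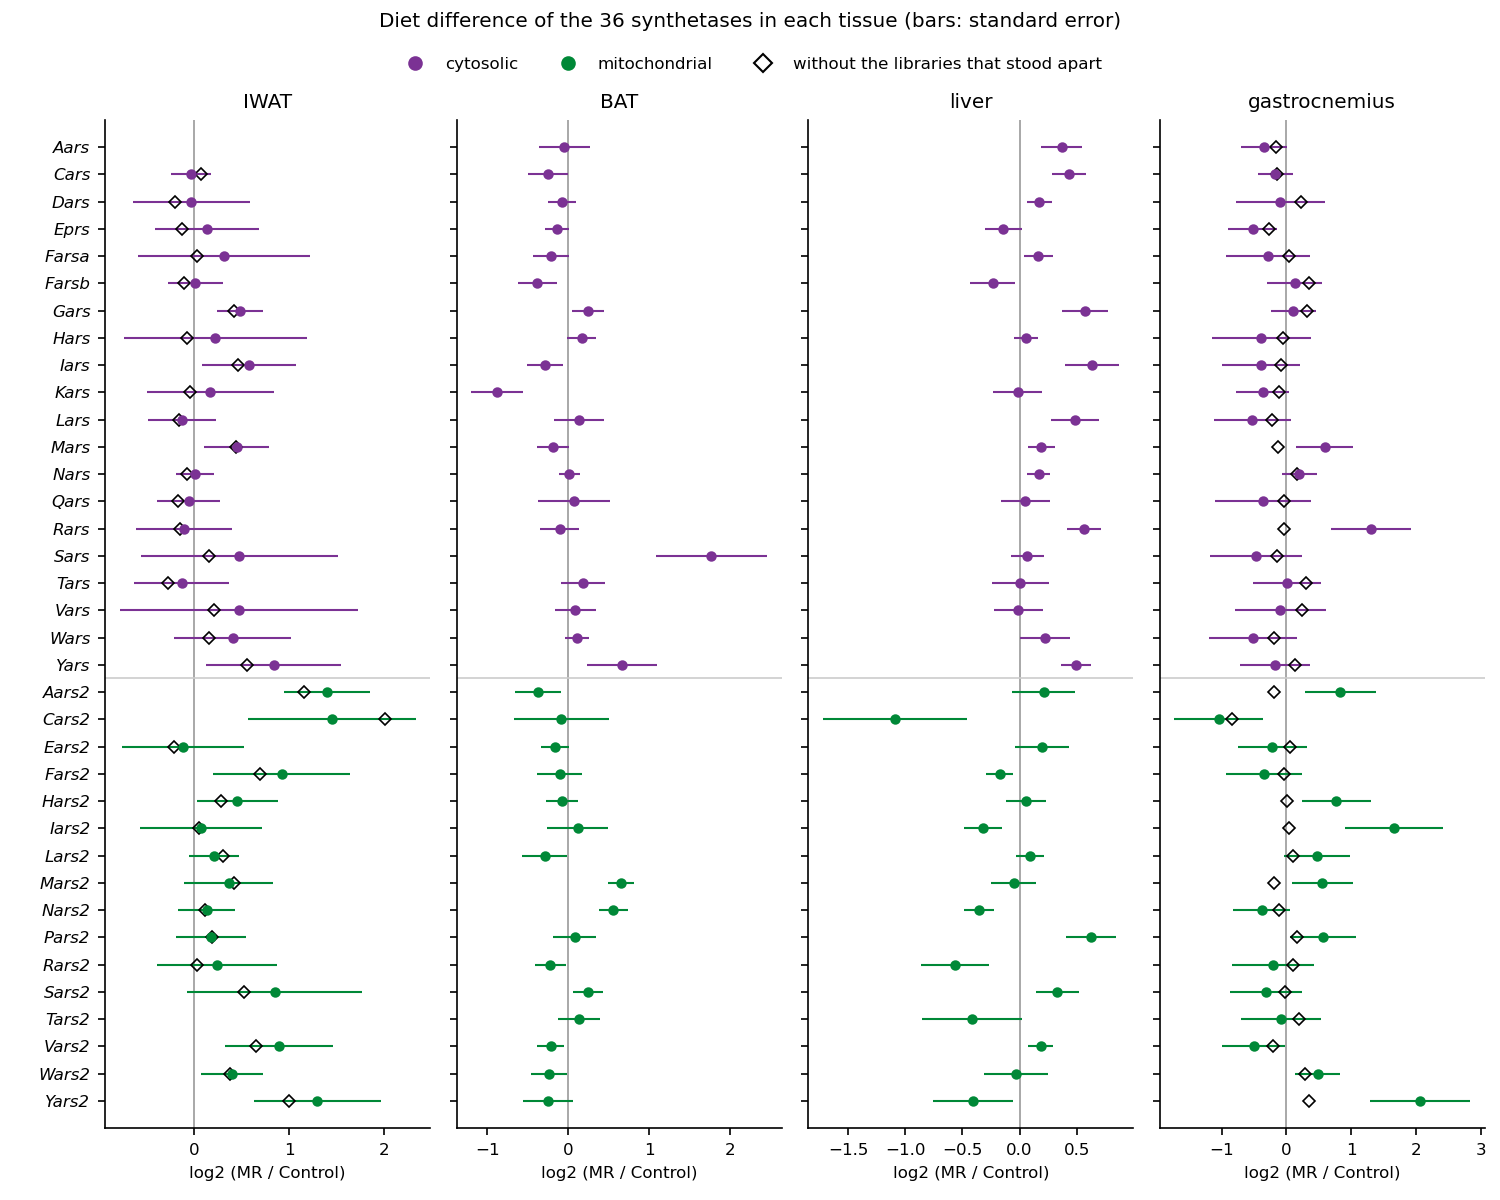
Log2 fold change of MR over Control (x axis) for each of the 36 synthetases (rows, cytosolic above, mitochondrial below) in 4 tissues, with standard errors from edgeR as bars; open diamonds give IWAT and gastrocnemius without the libraries that stood apart. In liver 16 of the 20 cytosolic points lie above 0, in IWAT 14 of the 15 mitochondrial points tested do and the gastrocnemius values of Yars2, Iars2 and Rars, at 2.07, 1.66 and 1.31 with MR3101, are 0.35, 0.04 and -0.05 without it.

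In liver the differences of the cytosolic genes were mostly above 0 and those of the mitochondrial genes were not. Of the 20 cytosolic synthetases 16 had a log2 fold change above 0, with a median of 0.17, against 7 of 16 mitochondrial synthetases with a median of -0.04. The median over all genes tested was 0.01, and 51.5% of them lay above 0. At an unadjusted p under 0.05, 6 cytosolic genes were higher and 0 lower, against 1 higher and 1 lower among the mitochondrial genes. Over all genes tested, 6.77% were higher and 7.76% lower at that threshold.

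Rars (chr11:35808381-35834528 in GRCm38.p6), which charges arginine, had 16.4 CPM in the lowest, 19.8 in the median and 25.2 in the highest MR liver, against 10.2, 14.2 and 17.0 CPM in the Control livers. The highest Control liver overlapped with the lowest MR liver alone. Rars averaged 20.4 ± 3.59 CPM in MR livers and 13.8 ± 2.50 CPM in Control livers (SD, n = 6 each), a log2 fold change of 0.57 ± 0.15 (SE) with an edgeR adjusted p of 0.0591. It was called when MR3102 or CON3115 was left out and by DESeq2 (adjusted p = 0.0183).

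Yars (chr4:129189734-129219240 in GRCm38.p6), which charges tyrosine, had 11.8, 12.5 and 15.3 CPM in the lowest, median and highest MR liver and 7.19, 9.25 and 11.1 CPM in the Control livers. All MR livers lay above all Control livers, which in liver held for 1.18% of the genes tested. Yars averaged 12.9 ± 1.28 CPM in MR livers and 9.15 ± 1.59 CPM in Control livers (SD, n = 6 each), a log2 fold change of 0.49 ± 0.13 with an edgeR adjusted p of 0.0685. DESeq2 gave an adjusted p of 0.0274.

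The other cytosolic genes at an unadjusted p under 0.05 charge glycine, isoleucine, leucine and cysteine, and in each of them the 2 diets overlapped. Gars had 27.8, 48.0 and 60.2 CPM in the lowest, median and highest MR liver, against 21.4, 28.6 and 46.8 CPM in the Control livers, a log2 fold change of 0.57 ± 0.20 with an edgeR adjusted p of 0.185. Iars had 17.1 to 36.6 CPM in MR livers and 11.7 to 29.5 CPM in Control livers, a log2 fold change of 0.63 ± 0.24 with an edgeR adjusted p of 0.215. Of the Control livers 4 had an Iars value below that of the lowest MR liver, and the remainder lay inside the MR range.

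Lars, the leucine enzyme, averaged 36.8 ± 8.98 CPM in MR livers and 26.3 ± 8.39 CPM in Control livers, a log2 fold change of 0.48 ± 0.21 with an edgeR adjusted p of 0.302. Cars, the cysteine enzyme, averaged 45.8 ± 6.49 CPM in MR livers and 33.9 ± 7.91 CPM in Control livers, a log2 fold change of 0.44 ± 0.15 with an edgeR adjusted p of 0.171. Mars, the methionine enzyme itself, averaged 187 ± 17.1 CPM in MR livers and 164 ± 29.5 CPM in Control livers (SD, n = 6 each), a log2 fold change of 0.19 ± 0.12 with an edgeR adjusted p of 0.504. The other cytosolic genes had log2 fold changes between -0.23 for Farsb, the beta subunit of the phenylalanine enzyme, and 0.37 for Aars.

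Among the mitochondrial genes in liver the ends of the range were low-count genes. Pars2, which charges proline, had 1.32, 1.66 and 1.99 CPM in the lowest, median and highest MR liver and 0.719, 1.16 and 1.32 CPM in the Control livers. The MR livers lay above the Control livers without overlap, by a small margin. Its log2 fold change was 0.63 ± 0.22 with an edgeR adjusted p of 0.174.

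Nars2, which charges asparagine, averaged 22.5 ± 2.33 CPM in MR livers and 28.7 ± 5.82 CPM in Control livers, a log2 fold change of -0.35 ± 0.13 with an edgeR adjusted p of 0.213. Mars2 averaged 5.08 ± 1.35 CPM in MR livers and 5.25 ± 1.08 CPM in Control livers (SD, n = 6 each), a log2 fold change of -0.05 ± 0.20 with an edgeR adjusted p of 0.939. The remaining mitochondrial genes lay between -1.09 for Cars2 (cysteine), with an SE of 0.63, and 0.33 for Sars2 (serine).

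**Figure D2:**
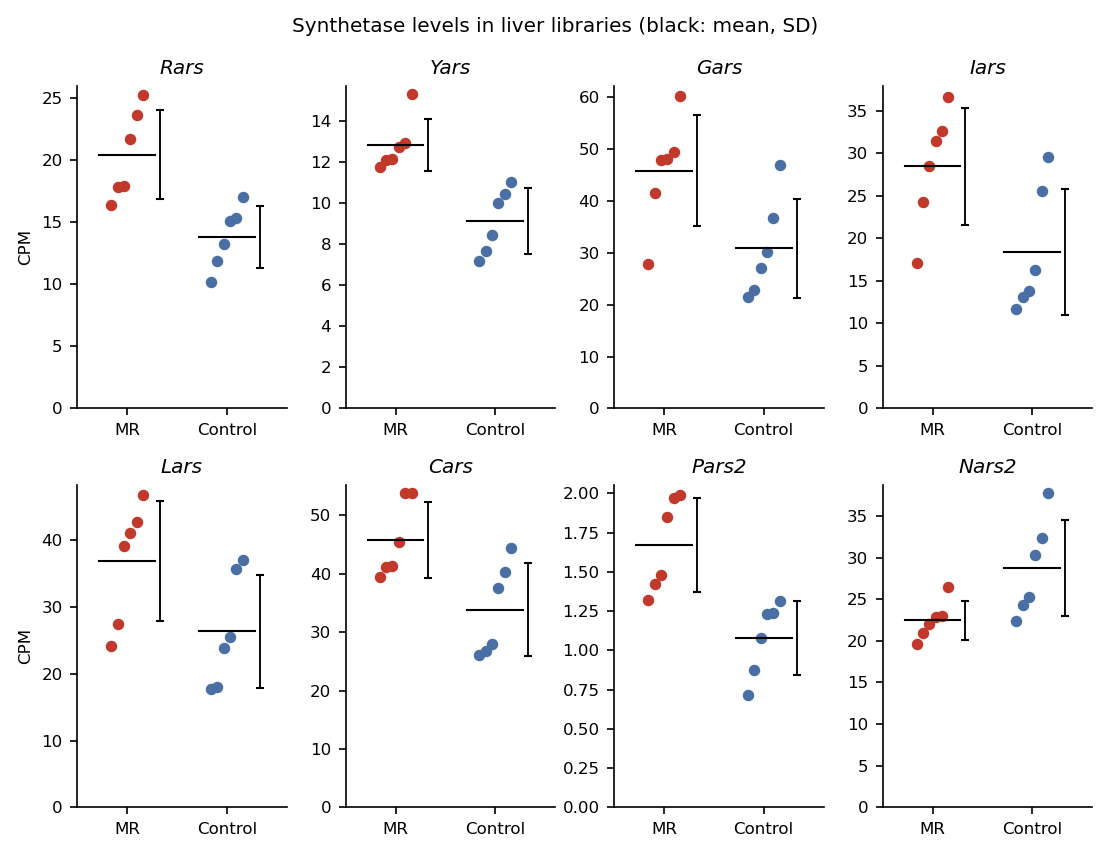
CPM (y axis, from 0) of 8 synthetases in each liver library, MR left and Control right; points are libraries, the horizontal line is the mean and the bar the SD (n = 6 each). The 2 diets do not overlap for Yars and Pars2, and Rars overlaps only between the lowest MR and the highest Control liver.

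Other known targets of ATF4 differed more between the diets in the same livers. Of the 22 tested genes of this list other than synthetases, 7 passed the edgeR test and all 7 were higher in MR livers, while over all genes 1.05% were called higher. The list's median log2 fold change was 0.58, and 21 of 22 values lay above 0. The list was chosen with earlier results of these data known, so these counts are a description. With all libraries 0 of its tested genes were called in BAT, IWAT or gastrocnemius, where its medians were 0.02, 0.38 and -0.08. Asns, which makes asparagine, rose to 221 ± 38.6 CPM in MR livers, against 21.4 ± 15.2 CPM in Control livers (SD, n = 6 each), a log2 fold change of 3.37 ± 0.41 with an edgeR adjusted p of 0.000372. Psat1, an enzyme of serine synthesis, rose to 21.9 ± 8.20 CPM in MR livers, against 2.76 ± 1.94 CPM in Control livers, a log2 fold change of 2.99 ± 0.37 with an edgeR adjusted p of 0.000407.

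The other called genes of the list were Slc7a5, an amino acid transporter subunit, Vldlr, a lipoprotein receptor, the secreted factors Fgf21 and Gdf15, and Aldh18a1, an enzyme of proline synthesis. Their log2 fold changes ran from 1.01 ± 0.23 for Gdf15 to 1.77 ± 0.34 for Vldlr. The largest cytosolic synthetase value on the same scale was that of Iars, at 0.63. Of the 12 tested partners of charging, such as the scaffold proteins Aimp1 and Aimp2 of the multi-synthetase complex, 0 passed the edgeR test in liver, and 2 were lower and 0 higher at an unadjusted p under 0.05.

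The summed level of 7 hepatocyte markers was 89809 to 190480 CPM in MR livers and 148720 to 263190 CPM in Control livers. The summed level of 5 red blood cell markers, of which 2 were at 0 in every library, was 47.2 to 97.7 CPM in MR livers and 79.4 to 131.1 CPM in Control livers. Their part in the synthetase differences was not tested.

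Promoters were read for 27 of the synthetases from RefSeq (build GRCm38.p6), 13 cytosolic and 14 mitochondrial, each covering 250 bases before and 50 after the start site. Those of Cars, Hars, Lars, Nars, Rars, Vars, Wars, Hars2 and Pars2 were not read. The letters TGATGCAA, the form of the amino acid response element described for ATF4 and its partners, were searched on both strands. They stood in 4 of the 27 promoters, Aars, Iars, Tars and Yars, 4 of 13 cytosolic and 0 of 14 mitochondrial. Beside these stand 0.895% of the 32851 promoters of the same length, or 1.03% of the 27025 genes they belong to. The looser form TGATGNAA, which includes the first, was found in 5 members, these 4 and Gars, beside 3.97% of all promoters and 4.51% of the genes. The 4 promoters are printed because they carry these letters, which no mitochondrial promoter read here does. Capitals mark the match, which reads TTGCATCA where it lies on the opposite strand.
Aars promoter (chr8:111033592-111033891, plus strand): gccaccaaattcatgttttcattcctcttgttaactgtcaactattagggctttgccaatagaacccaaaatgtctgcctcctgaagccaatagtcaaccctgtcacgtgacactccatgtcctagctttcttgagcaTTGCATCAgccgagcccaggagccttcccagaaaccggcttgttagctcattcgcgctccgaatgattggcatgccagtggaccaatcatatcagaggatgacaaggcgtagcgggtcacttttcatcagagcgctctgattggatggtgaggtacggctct
Iars promoter (chr13:49681880-49682179, plus strand): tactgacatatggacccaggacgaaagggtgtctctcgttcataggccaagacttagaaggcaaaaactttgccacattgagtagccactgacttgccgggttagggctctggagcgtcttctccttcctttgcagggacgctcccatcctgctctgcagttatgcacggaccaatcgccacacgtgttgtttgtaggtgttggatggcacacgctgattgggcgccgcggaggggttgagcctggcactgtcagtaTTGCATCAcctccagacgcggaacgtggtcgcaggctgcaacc
Tars promoter (chr15:11399609-11399908, minus strand): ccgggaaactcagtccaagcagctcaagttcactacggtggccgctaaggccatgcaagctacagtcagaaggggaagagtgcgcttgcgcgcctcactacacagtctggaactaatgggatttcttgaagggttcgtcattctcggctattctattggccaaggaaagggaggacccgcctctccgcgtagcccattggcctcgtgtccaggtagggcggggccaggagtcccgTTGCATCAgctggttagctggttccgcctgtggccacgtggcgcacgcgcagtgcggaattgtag
Yars promoter (chr4:129189653-129189952, plus strand): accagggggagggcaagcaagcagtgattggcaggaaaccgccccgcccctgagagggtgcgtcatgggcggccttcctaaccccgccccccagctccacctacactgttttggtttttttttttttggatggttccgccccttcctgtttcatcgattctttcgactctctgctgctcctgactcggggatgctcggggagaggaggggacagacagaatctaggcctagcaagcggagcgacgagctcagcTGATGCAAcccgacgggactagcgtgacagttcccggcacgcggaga
The match began at position -112 from the start site in Aars, at -15 in Tars (threonine), at 3 in Yars and at 7 in Iars. In liver the log2 fold changes of these genes were 0.37 for Aars, 0.63 for Iars, 0.01 for Tars and 0.49 for Yars, so that 1 of the 4 carriers lay at the median of all genes. The start sites of Aars and Yars used here lie inside the annotated span of the gene. A match of letters is a description and not a measured binding site.

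In BAT the medians of both groups of synthetases lay near that of all genes. The median log2 fold change was -0.02 for the 20 cytosolic and -0.10 for the 16 mitochondrial genes, beside 0.00 over all genes tested, with 10 of 20 and 6 of 16 above 0. Over single left-out libraries the cytosolic median ran from -0.08 (without CON3106) to 0.03 (without CON3112) and the mitochondrial one from -0.20 (without CON3112) to -0.05 (without CON3103). At an unadjusted p under 0.05, 3 synthetases were higher (Sars, Mars2 and Nars2) and 1 was lower (Kars), beside 7.26% and 6.33% of all genes. Over all genes 50.2% lay above 0. Markers of brown adipocytes summed to 4622 to 6933 CPM in MR BAT and 2160 to 4227 CPM in Control BAT, without overlap. Muscle fibre markers summed to 361 to 7292 CPM in MR BAT and 107 to 17626 CPM in Control BAT. Their part in the differences below was not tested.

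Mars2 (chr1:55237177-55240058 in GRCm38.p6), the mitochondrial methionine enzyme, had 14.1, 17.5 and 21.0 CPM in the lowest, median and highest MR library and 8.84, 11.3 and 13.3 CPM in the Control libraries. All MR libraries lay above all Control libraries, as 1.03% of the genes tested in BAT did. It averaged 17.7 ± 2.56 CPM in MR BAT and 11.2 ± 1.95 CPM in Control BAT (SD, n = 6 each), a log2 fold change of 0.65 ± 0.16 with an edgeR adjusted p of 0.0717. DESeq2 gave an adjusted p of 0.00975. Its cytosolic counterpart Mars had 105, 133 and 203 CPM in the lowest, median and highest MR library and 118, 163 and 209 CPM in the Control libraries, a log2 fold change of -0.19 ± 0.20 with an edgeR adjusted p of 0.734, which over single left-out libraries ran from -0.32 (without MR3113) to -0.10 (without CON3107).

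Nars2 averaged 35.0 ± 7.61 CPM in MR BAT and 23.8 ± 4.96 CPM in Control BAT (SD, n = 6 each), a log2 fold change of 0.55 ± 0.18 with an edgeR adjusted p of 0.183. The same gene had the opposite sign in liver, and the difference between the 2 tissues, 0.94 on the log2 scale, had an edgeR adjusted p of 0.632 in the joint fit. Kars, the lysine enzyme of both compartments, had 1.97, 4.67 and 8.76 CPM in the lowest, median and highest MR library and 6.11, 8.59 and 15.8 CPM in the Control libraries, a log2 fold change of -0.88 ± 0.32 with an edgeR adjusted p of 0.232. In Kars 4 of the 6 MR libraries lay below the lowest Control library.

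Sars, the cytosolic serine enzyme, had the largest difference of the family in BAT, and it rested on 1 library. MR3116 had 981 CPM, while the other MR libraries had 62.1 to 78.4 CPM and the Control libraries 54.5 to 90.8 CPM. With all libraries the log2 fold change was 1.77 ± 0.69 (edgeR adjusted p = 0.266), and without MR3116 it was 0.10. Yars was also high in that library, at 44.6 CPM, against 4.65 to 11.1 CPM in the other MR libraries and 7.51 to 10.6 CPM in the Control libraries. In the same library 98 of the genes tested were at over 3 times the highest value of the other BAT libraries, 2 of them synthetases. In CON3106 the same held for 81 genes, in none of the remaining libraries for more than 7, and in none of them for a synthetase.

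**Figure D3:**
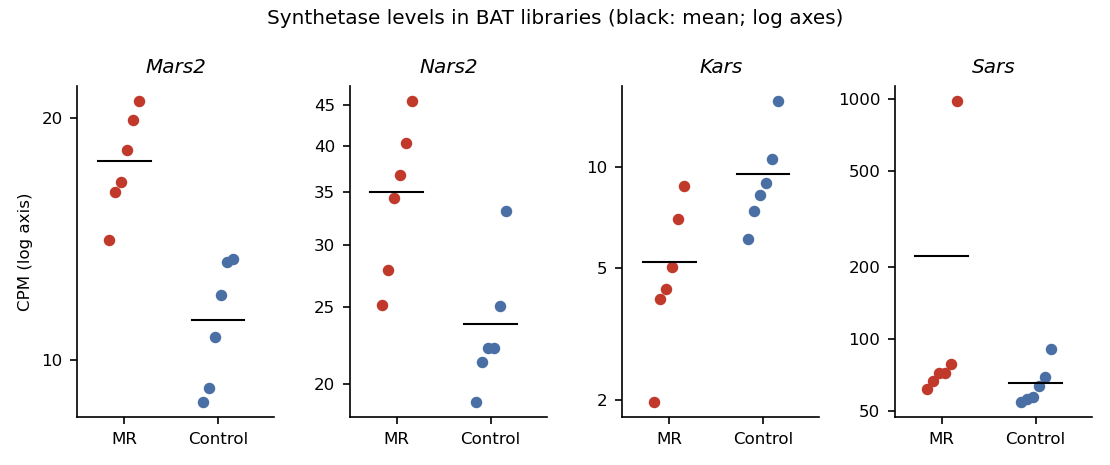
CPM (y axis, logarithmic, a separate range for each gene) of Mars2, Nars2, Kars and Sars in each BAT library, MR left and Control right; points are libraries and the line is the mean (n = 6 each). The 2 diets do not overlap for Mars2, and the MR mean of Sars is carried by MR3116 at 981 CPM.

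In IWAT nearly all mitochondrial synthetases had values above 0, and the medians of both groups moved with single libraries. With all libraries the median log2 fold change was 0.40 for the 15 mitochondrial genes tested and 0.17 for the 19 cytosolic ones, against -0.02 over all genes, of which 48.5% lay above 0. Without MR3116, CON3106 and CON3115 it was 0.37 for the mitochondrial genes and -0.04 for the cytosolic ones, against -0.06 over all genes, with 14 of 15 and 9 of 19 above 0. Over single left-out libraries the mitochondrial median ran from 0.22 (without MR3116) to 0.66 (without CON3106) and the cytosolic one from 0.01 (without CON3115) to 0.38 (without CON3114). The cytosolic minus the mitochondrial median ran from -0.63 (without CON3106) to 0.10 (without MR3116), and was -0.23 with all libraries. Without the 3 libraries 43.2% of all genes lay above 0. There 5 mitochondrial and 2 cytosolic genes were higher and 0 lower at an unadjusted p under 0.05, beside 7.1% and 8.61% of all genes (15.7% in either direction), and 0 of 11624 genes passed the adjusted threshold (0.0%) in edgeR.

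Aars2, the mitochondrial alanine enzyme, had 13.2, 26.7 and 77.7 CPM in the lowest, median and highest MR library and 6.78, 10.3 and 21.5 CPM in the Control libraries. The highest value was that of MR3116. The log2 fold change was 1.40 ± 0.46 with an edgeR adjusted p of 0.292, and 1.16 ± 0.37 with an adjusted p of 0.163 without the 3 libraries. Without MR3116 alone it was 0.89. In the libraries other than the 3, Aars2 averaged 23.9 ± 7.50 CPM in MR IWAT (n = 5) and 10.6 ± 5.45 CPM in Control IWAT (n = 4, SD).

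Vars2, the mitochondrial valine enzyme, was the one tested synthetase whose groups did not overlap without the 3 libraries, with 26.7 to 35.5 CPM in MR IWAT and 13.9 to 26.5 CPM in Control IWAT (3.74% of all genes lay wholly above). Its log2 fold change was 0.66 ± 0.21 with an edgeR adjusted p of 0.163 there. Fars2 (phenylalanine) averaged 37.3 ± 5.50 CPM in MR IWAT and 22.7 ± 7.29 CPM in Control IWAT without the 3 libraries, a log2 fold change of 0.70 ± 0.24 with an edgeR adjusted p of 0.181. Yars2 (tyrosine) had a log2 fold change of 1.30 ± 0.67 with all libraries (edgeR adjusted p = 0.668), where MR3116 alone had 436 CPM, and of 1.00 ± 0.43 without the 3 libraries (adjusted p = 0.294). Without MR3116 alone the Yars2 value was 0.26, and over single left-out libraries it ran up to 1.56. Cars2 gave 2.01 ± 0.86 without the 3 libraries, with MR values spread from 4.15 to 64.9 CPM.

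Tars2, the mitochondrial threonine enzyme, was too low for the filter in IWAT. It had 5 to 43 counts per MR library and 3 to 7 counts per Control library, that is 1.27, 1.57 and 6.37 CPM in the lowest, median and highest MR library and 0.433, 0.649 and 1.05 CPM in the Control libraries. In CPM the diets did not overlap, as 0.757% of the genes tested in IWAT lay wholly higher in MR with all libraries, but the counts did overlap, with 5 in MR3116 and 7 in CON3114. The Control values lay near the limit that a count of 0 allows. In the joint edgeR fit of all 47 libraries, which called 3.29% of the genes for diet in IWAT, Tars2 rose by 1.92 ± 0.53 on the log2 scale (adjusted p = 0.0277), and DESeq2 gave 1.93 ± 0.57 (adjusted p = 0.034).

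Among the cytosolic genes in IWAT, Gars had the smallest p with all libraries. It averaged 96.8 ± 22.4 CPM in MR IWAT and 69.1 ± 17.8 CPM in Control IWAT (SD, n = 6 each), a log2 fold change of 0.49 ± 0.25 with an edgeR adjusted p of 0.642. Without the 3 libraries the smallest p was that of Iars, which had 23.3 to 27.8 CPM in MR IWAT and 12.8 to 23.4 CPM in Control IWAT. It averaged 25.3 ± 1.79 CPM in MR IWAT (n = 5) and 18.4 ± 4.62 CPM in Control IWAT (n = 4, SD), a log2 fold change of 0.46 ± 0.18 with an edgeR adjusted p of 0.232. The highest Control library overlapped with the lowest MR library. Mars averaged 192 ± 101 CPM in MR IWAT and 141 ± 47.2 CPM in Control IWAT, a log2 fold change of 0.45 ± 0.34 with an edgeR adjusted p of 0.911. Mars was 390 CPM in MR3116, and without the 3 libraries it averaged 153 ± 33.5 CPM in MR IWAT and 112 ± 18.1 CPM in Control IWAT, a log2 fold change of 0.44 ± 0.20. Without MR3116 alone it was 0.06, and over single left-out libraries it ran up to 0.61. Mars2 had a log2 fold change of 0.36 ± 0.47 with all libraries (edgeR adjusted p = 1.00) and of 0.42 ± 0.25 without the 3 libraries, but of -0.18 without MR3116 alone, 0.23 without CON3114 alone and 0.76 without CON3106 alone.

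All 10 genes of a list of mitochondrial content, such as the ATP synthase subunit Atp5b and citrate synthase Cs, had a log2 fold change above 0, with a median of 1.10, although 0 passed the adjusted edgeR threshold and 6 had an unadjusted p under 0.05. Their summed level was 19062 to 48117 CPM in MR IWAT and 8120 to 17226 CPM in Control IWAT. Markers of fibroblasts summed to 761 to 1262 CPM in MR IWAT and 1550 to 2927 CPM in Control IWAT without the 3 libraries. The summed level of 7 brown adipocyte markers, including Ucp1, was 1334 to 3178 CPM in MR IWAT and 77.8 to 724 CPM in Control IWAT. The median difference of the mitochondrial synthetases was smaller than that of the mitochondrial content list, and the part of the markers in it was not tested.

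In IWAT lymphocyte markers summed to 12.0 to 1177 CPM in MR libraries and 12.5 to 2301 CPM in Control libraries, hepatocyte markers to 258 to 7943 CPM in MR libraries and 338 to 11138 CPM in Control libraries, and skeletal muscle markers to 19.5 to 542 CPM in MR libraries and 16.5 to 2141 CPM in Control libraries. These ranges overlapped between the diets, and the part of these markers in the synthetase values was not tested.

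In gastrocnemius the larger differences above 0 came from 1 library. Yars2 had 34.4, 34.8, 40.5, 43.7 and 476 CPM in the MR libraries, against 5.12, 33.1 and 43.1 CPM in the lowest, median and highest Control library. The value of 476 CPM was that of MR3101, which stood apart from all other gastrocnemius libraries. The log2 fold change was 2.07 ± 0.77 with all libraries (edgeR adjusted p = 0.764) and 0.35 ± 0.41 without MR3101 (adjusted p = 1.00).

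Iars2 (mitochondrial isoleucine), Rars and Mars followed the same course. Iars2 was 718 CPM in MR3101, against 18.4 to 108 CPM in the other MR libraries and 27.2 to 93.5 CPM in the Control libraries, and its log2 fold change was 1.66 ± 0.75 with MR3101 (edgeR adjusted p = 0.764) and 0.04 ± 0.43 without it. Rars was 230 CPM in MR3101, against 24.1 to 29.8 CPM in the other MR libraries and 18.9 to 43.0 CPM in the Control libraries, and its log2 fold change was 1.31 ± 0.61 with MR3101 and -0.05 ± 0.24 without it. Mars gave 0.59 ± 0.44 with MR3101 and -0.14 ± 0.18 without it, and Mars2 gave 0.55 ± 0.47 and -0.20 ± 0.25. The lowest log2 fold change was that of Cars2, at -1.05 ± 0.68 with MR3101 and -0.84 ± 0.68 without it. Among the Control libraries CON3103 had 10.2 CPM of Cars2 and the others 0.732 to 2.43 CPM.

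Eprs, the glutamate and proline enzyme, went the other way, with 24.5 CPM in MR3101, 80.0 to 134 CPM in the other MR libraries and 107 to 162 CPM in the Control libraries. Its log2 fold change was -0.52 ± 0.38 with all libraries (edgeR adjusted p = 0.890) and -0.27 ± 0.19 without MR3101. With MR3101 the median of the family in gastrocnemius was -0.23 for the cytosolic and 0.19 for the mitochondrial genes, and without it -0.05 and 0.02, beside 0.02 over all genes. Over the other single left-out libraries the cytosolic median ran from -0.34 (without MR3102) to -0.11 (without CON3106) and the mitochondrial one from 0.02 (without MR3102) to 0.33 (without CON3114). Over all genes 46.5% lay above 0 with MR3101 and 54.0% without it. Muscle fibre markers summed to 25828 CPM in MR3101 and to 103820 to 147570 CPM in the other MR libraries, and their part in these values was not tested. Without MR3101, 0 of 36 synthetases had an unadjusted p under 0.05 in edgeR, beside 3.22% of all genes, and 0.0% of all genes passed the adjusted threshold. On the authors' normalized values with a pseudocount of 1, the median of all genes shifted by -0.13 in this tissue, and the mitochondrial median was then -0.07, or 0.10 above that of all genes.

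The response to the diet was compared between tissues in 1 joint edgeR fit of the 47 libraries. For the interaction of diet and tissue 0 of 36 synthetases passed the adjusted threshold, beside 0.524% of all 13541 genes tested (71), and 4 had an unadjusted p under 0.05 (Aars, Aars2, Tars2 and Yars2), beside 13.9% of all genes. Without the 4 libraries that stood apart, 0 of 36 passed, 8 had an unadjusted p under 0.05 (15.7% of all genes), and the smallest adjusted p was 0.0558 for Vars2, beside 1.88% of genes called. With the animal as a replicate block 0 of 36 passed and 0.303% of all genes did. Between pairs of tissues the smallest p among the members was that of Tars2 for IWAT minus liver, a difference of 2.35 on the log2 scale with an edgeR adjusted p of 0.138.

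Few genes kept 1 direction throughout. Leaving out the libraries that stood apart, 2 of 19 cytosolic synthetases tested in all tissues (Gars and Yars) had a log2 fold change above 0 in the 4 tissues and 2 (Eprs and Kars) below 0, and 1 of 15 mitochondrial ones (Pars2) was above 0 in the 4 tissues. The BAT value of Yars, 0.66 ± 0.43, rested on MR3116 at 44.6 CPM. The other MR libraries there had 4.65 to 11.1 CPM and the Control libraries 7.51 to 10.6 CPM. Over the 9294 genes that passed the filter on low counts in all 4 tissues with those libraries left out, the shares were 7.28% above and 6.97% below.

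The tissues themselves differed in which group of synthetases was high. On raw counts of the 4 tables scaled together over all 47 libraries and given as CPM, and in the Control libraries that did not stand apart (4 of IWAT and 6 of each other tissue), 12 of the 16 mitochondrial genes were highest in BAT and 11 of the 20 cytosolic genes in gastrocnemius. No synthetase was highest in IWAT, and 15 of the 36 were lowest there. The same count over all genes is not given here, so these counts are not shown to be particular to synthetases. For the difference between tissues under the Control diet 21 of 36 synthetases were called in the joint edgeR fit, a smaller share than the 77.6% of all genes tested. Without the 4 libraries that stood apart 30 of 36 were called, beside 88.5% of all genes. Values in the paragraphs that follow are means ± SD over these libraries, and each gene is compared with itself across tissues only, since the tag site differs from gene to gene.

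**Figure D4:**
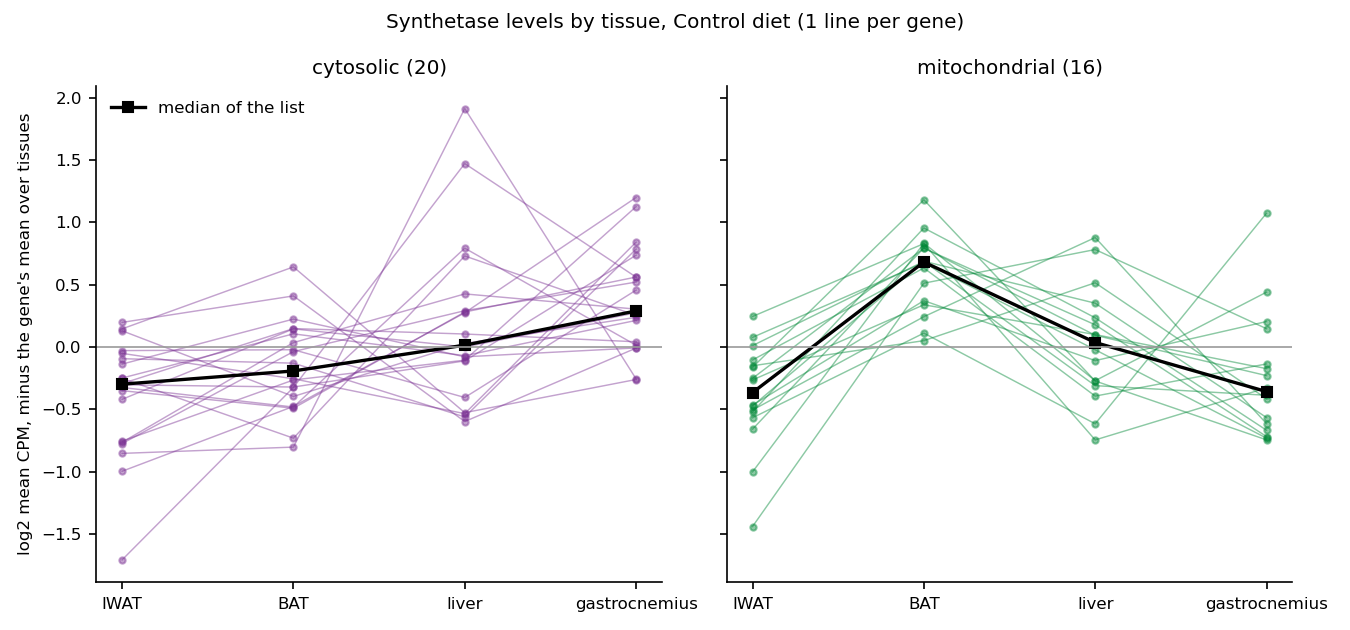
Mean log2 CPM of each synthetase in 4 tissues under the Control diet, after subtracting the gene's own mean over the tissues (y axis), with cytosolic genes left and mitochondrial genes right; each thin line is a gene and the black squares are the median of the list, over 4 IWAT libraries and 6 of each other tissue, without the libraries that stood apart. The mitochondrial median peaks in BAT, and the cytosolic median is highest in gastrocnemius.

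In gastrocnemius the genes of the multi-synthetase complex were among the high ones, a complex that in mammals holds the enzymes for arginine, aspartate, glutamate and proline, glutamine, isoleucine, leucine, lysine and methionine. Eprs averaged 145 ± 24.8 CPM in gastrocnemius and 31.7 ± 4.68 CPM in IWAT. Iars averaged 52.6 ± 18.4 CPM in gastrocnemius and 14.3 ± 3.28 CPM in IWAT. Rars averaged 30.3 ± 10.3 CPM in gastrocnemius and 14.5 ± 4.09 CPM in BAT. All 3 had larger gaps between these tissues than their SDs.

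Lars averaged 83.3 ± 39.9 CPM in gastrocnemius and 32.1 ± 10.3 CPM in liver. Qars (glutamine) averaged 95.4 ± 59.8 CPM in gastrocnemius and 37.5 ± 14.0 CPM in liver. Kars averaged 12.5 ± 3.15 CPM in gastrocnemius and 6.88 ± 2.34 CPM in liver. The SDs of Lars and Qars in gastrocnemius were wide, each above the liver mean of the gene.

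The other 2 members of that complex were highest in liver. Mars averaged 200 ± 36.5 CPM in liver and 87.5 ± 15.3 CPM in IWAT, and Dars (aspartate) 34.2 ± 2.80 CPM in liver and 12.4 ± 1.65 CPM in BAT. Liver also held the highest level of Nars (asparagine), with 190 ± 21.1 CPM against 78.3 ± 7.03 CPM in BAT. Tars averaged 23.7 ± 9.93 CPM in liver and 3.47 ± 1.76 CPM in IWAT, and Aars 4.57 ± 0.994 CPM in liver and 0.504 ± 0.354 CPM in IWAT, the widest ratio of the family at 9.06.

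Among the cytosolic genes that are not in the complex, Cars averaged 50.2 ± 9.62 CPM in gastrocnemius and 24.2 ± 4.86 CPM in BAT, and Yars 13.1 ± 2.80 CPM in gastrocnemius and 5.33 ± 1.97 CPM in IWAT. Gars averaged 84.5 ± 13.4 CPM in BAT and 37.6 ± 11.5 CPM in liver, and Wars (tryptophan) 39.9 ± 2.71 CPM in BAT and 19.8 ± 6.63 CPM in liver. The remaining cytosolic genes differed little between tissues. Farsa and Farsb, the subunits of the phenylalanine enzyme, Hars (histidine), Sars and Vars (valine) had ratios of highest to lowest tissue mean of 1.28 to 1.62, and none of the 5 passed the edgeR test for a difference between tissues with or without the libraries that stood apart. Kars, Qars, Rars and Wars passed that test only without those libraries. With all libraries their edgeR adjusted p was 0.157, 0.0506, 0.0875 and 0.253.

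The mitochondrial genes were mostly highest in BAT. Yars2 averaged 68.7 ± 25.0 CPM in BAT and 25.1 ± 14.6 CPM in IWAT, Fars2 49.5 ± 18.9 CPM in BAT and 16.1 ± 4.12 CPM in gastrocnemius, and Iars2 183 ± 80.5 CPM in BAT and 69.0 ± 28.7 CPM in gastrocnemius. Aars2 averaged 29.7 ± 9.05 CPM in BAT and 8.32 ± 4.49 CPM in IWAT, and Vars2 30.7 ± 4.54 CPM in BAT and 10.8 ± 2.12 CPM in gastrocnemius. Lars2 (leucine) averaged 37.4 ± 7.48 CPM in BAT and 18.3 ± 3.31 CPM in liver. These enzymes charge the transfer RNAs on which mitochondria translate respiratory chain subunits.

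The mitochondrial genes of lower level were mostly highest in BAT too. Hars2 (histidine) averaged 9.43 ± 2.12 CPM in BAT and 3.95 ± 0.867 CPM in gastrocnemius, Rars2 (arginine) 10.9 ± 3.24 CPM in BAT and 5.16 ± 2.40 CPM in gastrocnemius, and Pars2 3.92 ± 0.617 CPM in BAT and 1.31 ± 0.289 CPM in liver. Sars2 averaged 3.85 ± 0.891 CPM in BAT and 2.15 ± 1.06 CPM in IWAT, and Wars2 (tryptophan) 3.90 ± 0.968 CPM in BAT and 2.57 ± 1.08 CPM in IWAT. Cars2 averaged 12.5 ± 16.2 CPM in BAT and 3.28 ± 4.06 CPM in gastrocnemius, with SDs above the means. Wars2 did not pass the edgeR test for a difference between tissues with all libraries (adjusted p = 0.247). Without those that stood apart it did not pass either (adjusted p = 0.153). Yars2, Cars2, Rars2, Sars2 and Ears2 passed the same joint fit only without those libraries.

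The exceptions were Mars2, Nars2, Tars2 and Ears2. Mars2 was the single mitochondrial gene highest in gastrocnemius, at 20.6 ± 5.84 CPM, against 6.40 ± 1.31 CPM in liver, a log2 difference of -1.69 ± 0.35 for liver over gastrocnemius with an edgeR adjusted p of 6.8e-05. Nars2 averaged 35.0 ± 7.12 CPM in liver and 12.4 ± 3.90 CPM in gastrocnemius. Tars2 averaged 2.55 ± 2.13 CPM in liver and 0.546 ± 0.247 CPM in IWAT, and Ears2 (glutamate) 3.29 ± 1.09 CPM in liver and 1.73 ± 0.465 CPM in gastrocnemius.

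In the 4 libraries that stood apart more cytosolic genes lay below the range of the other libraries than above it. In gastrocnemius MR3101, 16 of 20 cytosolic genes lay below the range of the other libraries and 2 above it, while of the 16 mitochondrial genes 8 lay below and 8 above. Over all genes tested there, 52.9% lay below and 29.8% above. In the 3 IWAT libraries 11 of 20 cytosolic genes lay below, 2 above and 7 overlapped, and of the 16 mitochondrial genes 4 lay below, 4 above and 8 overlapped, beside 33.2% of all genes below and 20.9% above.

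Sars was 0.253 to 0.901 CPM in the 3 IWAT libraries, against 46.7 to 82.2 CPM in the other IWAT libraries, and 0.196 CPM in gastrocnemius MR3101, against 42.4 to 77.6 CPM. Hars was 0 to 3.15 CPM in the 3 IWAT libraries, against 36.1 to 53.1 CPM, and 0 in gastrocnemius MR3101, against 20.9 to 56.6 CPM. Vars was 0 in all 4 libraries, against 6.35 to 60.9 CPM in IWAT and 10.4 to 25.3 CPM in gastrocnemius. In contrast Iars2 was 337 to 986 CPM in the 3 IWAT libraries, against 90.7 to 253 CPM, and 718 CPM in gastrocnemius MR3101, against 18.4 to 108 CPM.

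In this assay a transcript is counted by the bases that follow the CATG nearest its 3' end, where the enzyme NlaIII cuts. The expected tag of each member was taken from its longest transcript in GENCODE vM1, as CATG and the 23 bases after it. In 30 of the 36 members that site lay in the 3' UTR and in 6 in the coding region, and no member's tag was the expected tag of another gene. For 20 members other transcripts of the gene gave a different tag. The tags below are shown because the genes behind the first 4 were higher on average in the libraries that stood apart, in both tissues, and those behind the last 4 were lower. Capitals mark the CATG.
Mars tag: CATGgacagtaataaacaatgtaccgt
Mars2 tag: CATGcctgccttttaacttattaaagt
Aars2 tag: CATGtggtacacaataatacaataatt
Iars2 tag: CATGaccaagtcccagaaacagacagt
Sars tag: CATGaattttatggttgggggccacca
Eprs tag: CATGagataaaacagctattcttatgc
Kars tag: CATGcaactatggtgtctgcatctcag
Dars tag: CATGctggtggtggcattgggctggaa
The distance from the start of the tag to the end of the transcript was 41 bases for Mars, 49 for Mars2, 33 for Aars2 and 68 for Iars2, and 77 for Sars, 94 for Eprs, 158 for Kars and 637 for Dars, whose tag lies in the coding region. Of the 7 members with a distance of up to 60 bases, 6 were higher on average in the 3 IWAT libraries and 7 in gastrocnemius MR3101, with medians of 0.92 and 2.08 on the log2 scale. Of the 11 members at 61 to 130 bases, Iars2 among them, 2 were higher in each tissue, with medians of -0.729 and -2.25. All genes tested with a transcript had medians of 0.384 and 0.246 in that class. Of the 7 members with a distance over 500 bases, 2 and 1 were higher, with medians of -2.67 and -5.52. All genes tested with a transcript had medians of 0.794 and 1.52 in the first class and of -2.60 and -3.23 in the last.

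Across the 36 members the Spearman correlation between this distance and the difference of the libraries that stood apart from the others was -0.552 in IWAT and -0.588 in gastrocnemius, and across all genes it was -0.461 (n = 10434) and -0.491 (n = 10515). The GC share of the tag went with the difference about as closely, at -0.476 and -0.513 across members. Distance and GC share were themselves correlated at 0.497, and these genes share the same libraries, so the values are descriptions across genes. Yars2, at 527 bases, and Sars, at 77 bases, lay far from the pattern. RNA quality and sequencing batch were not analysed here.

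**Figure D5:**
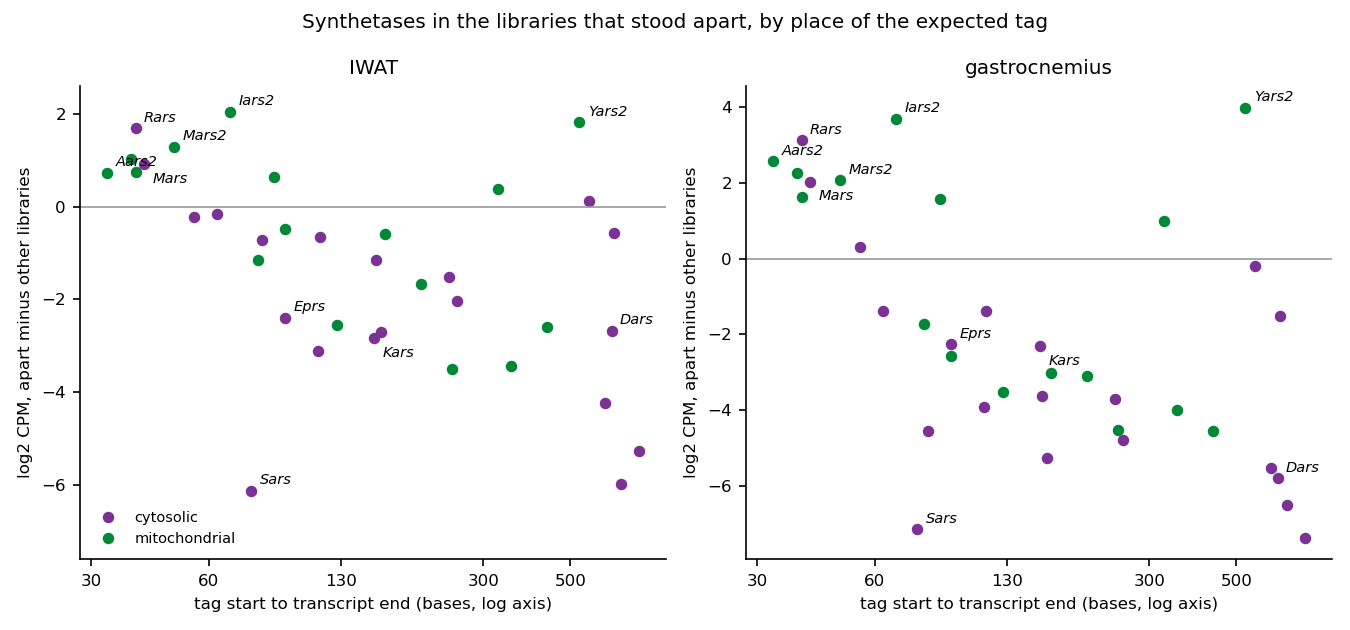
Mean log2 CPM of each synthetase in the libraries that stood apart minus the others (y axis; 3 against 9 libraries in IWAT, 1 against 10 in gastrocnemius), against the distance from the expected tag to the transcript end (x axis, logarithmic). Mars, Mars2, Aars2, Rars and Iars2 lie above 0 at short distances in both tissues, Dars lies below 0 at 637 bases, and Sars and Yars2 lie away from the others. Most members at 61 to 130 bases lie below 0.

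Within a diet and tissue, the correlations between synthetases lay near 0 in the middle of their range. After subtracting the diet means and leaving out the libraries that stood apart, the median Spearman correlation between members was between -0.08 and 0.16 in every class of pairs and every tissue, over 9 to 12 libraries that share normalization. The highest was that of the mitochondrial pairs in BAT. The median over all pairs of genes tested was 0.0 in IWAT, BAT and liver and 0.01 in gastrocnemius. Of the 561 pairs of members tested in the 4 tissues 5 exceeded 0.5 in each of them, 0.891%, beside 0.25% of all pairs of genes tested in the 4 tissues. The closest were Farsb with Iars2 (mean 0.776), Lars with Qars (0.761) and Lars with Aars2 (0.746).

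Lars and Iars2 went in opposite directions in the 4 tissues, with values of -0.633 in IWAT, -0.895 in BAT, -0.860 in liver and -0.915 in gastrocnemius. In gastrocnemius Lars ranged from 32.4 to 122 CPM in the MR libraries other than MR3101 and from 42.3 to 128 CPM in Control libraries. Of the 9210 genes other than Lars that passed the filter on low counts in all 4 tissues with all libraries, 9 (Iars2 among them) had a mean correlation with Lars this low, 184 had one of 0.7 or more and 140 one of -0.7 or less. Many other genes thus varied with Lars across the same libraries, and these values are given as a description.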

How the data were processed

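Tissues of 12 mice gave 47 libraries of total RNA, prepared with a SOLiD SAGE kit per the labels' protocols, and each mouse is the replicate. Raw tag counts per gene symbol were deposited by the authors in 1 table per tissue, per the labels' protocols from fragments mapped uniquely to mouse RefSeq genes. The builds mm10 and GRCm38.p1 and the tool DESeq are named in the submitters' processing notes, while neither aligner nor counter is given in the sources used here. A second set of tables holds signal values that the authors made by dividing the counts by 1 DESeq size factor per library, and it was used only as an alternative.

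MR was compared with Control within each tissue by edgeR 4.0.16 (quasi-likelihood F test, filterByExpr with a minimum count of 10, TMM, Benjamini-Hochberg over all genes tested, threshold 0.05) in R 4.3.3. The standard error is the log2 fold change divided by the root of F. A joint edgeR fit of all libraries tested the interaction of diet and tissue and the difference between tissues under Control. The scripts were tested on simulated data. Alternatives were other size factors, other filters, DESeq2 1.42.0, limma 3.58.1 (voom, and the authors' normalized values with pseudocounts of 1 and 5), each library left out in turn, fits without the libraries that stood apart (median correlation under 0.8), and the animal as a replicate block.

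The animal pairs the tissues, since all mice but 1 gave every tissue. Over pairs of tissues the mean correlation of deviations was -0.0418 to 0.0698 for the same animal. For other animals of the same diet it was -0.014 to 0.122. These values include the libraries that stood apart and do not settle whether libraries of an animal deviate together. Members were matched by symbol, which in the gastrocnemius table is in date form for 25 genes, none a synthetase. The members and gene lists were chosen with earlier results of these data known. The genes described in full were the 2 cytosolic and the 2 mitochondrial members with the smallest p in each tissue, any past the threshold, and Mars and Mars2. Others described with values or sequences were chosen after their values were seen. Tags came from GENCODE vM1 transcripts and positions and promoters from RefSeq (GRCm38.p6). Without strand information in the sources used here, overlapping antisense genes cannot be told apart.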

Additional observations from a re-analysis of the deposited data

Results flagged for a closer look

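In each group of 5 or 6 libraries the values of the named synthetases and the summed level of both lists were examined for a library whose gap to its nearest neighbour was large against the range of its group. This was so in 15 of 60 groups. The groups share libraries, the sums contain the members, and most named members were chosen by their smallest p. The count is therefore not compared with a rate expected by chance. Of the 15, 11 were in libraries that stood apart over all genes.

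In IWAT, MR3116 had 390 CPM of Mars (next highest MR library 187), 77.7 CPM of Aars2 (next 32.2), 436 CPM of Yars2 (next 90.5), 39.2 CPM of Mars2 (next 13.6) and 1655 CPM summed over the mitochondrial synthetases (next 520.5). In gastrocnemius, MR3101 had 230 CPM of Rars (next highest MR library 29.8), 476 CPM of Yars2 (next 43.7), 718 CPM of Iars2 (next 108), 638 CPM of Mars (next 176), 71.6 CPM of Mars2 (next 23.1) and 1458 CPM summed over the mitochondrial synthetases (next 261).

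In BAT, MR3116 had 981 CPM of Sars (next highest MR library 78.4) and 1636 CPM summed over the cytosolic synthetases (next 830). In liver, MR3113 had 15.3 CPM of Yars (next highest MR library 12.9), and CON3114 had the lowest sum of the cytosolic synthetases among the Control livers, at 624.0 CPM (next 728). The libraries behind these last values did not stand apart in BAT or liver over all genes.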

How the results depend on the processing

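Under alternatives 628 values were examined, those of named members and those of the median log2 fold change of each list in each tissue. Of these 618 were counted as kept, which for a member means the same direction and side of the threshold. All medians were counted as kept, although some changed sign. The cytosolic median ran from -0.04 to 0.38 in IWAT and from -0.08 to 0.03 in BAT. The mitochondrial one ran from -0.12 to 0.003 in liver and from -0.08 to 0.50 in gastrocnemius. Of the other member values, 5 passed the threshold, and the 5 that changed sign did so on leaving out 1 library. No synthetase passed in the edgeR fits within each tissue with all libraries, so keeping its side was nearly fixed in advance. A value could also shrink and still be counted as kept, as that of Sars in BAT did from 1.77 to 0.10 without MR3116. Over single left-out libraries Mars2 ran from -0.18 (without MR3116) to 0.76 in IWAT, from -0.18 to 0.046 (without MR3109) in liver and from -0.20 (without MR3101) to 0.72 in gastrocnemius, where Rars ran from -0.045 to 1.54 and Mars from -0.14 to 0.73, the lowest values without MR3101. None of the 5 reversed values passed the threshold.

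The count of synthetases called was 1 in IWAT with DESeq2 and 1 with the joint fit, 1 in BAT with DESeq2, 2 in liver with DESeq2 and 0 to 1 in liver over left-out libraries, against 0 in each tissue by edgeR. Over all genes, IWAT calls were 6 with upper-quartile factors, 305 with DESeq2, 7 with limma voom, 12 and 13 on the authors' normalized values with pseudocounts of 1 and 5, 446 in the joint fit, 0 without the 3 libraries that stood apart and 0 to 41 over left-out libraries, the highest without CON3114. BAT calls were 326 with DESeq2, 41 in the joint fit and 50 to 111 over left-out libraries. Liver calls were 476 with DESeq2, 29 in the joint fit and 158 to 322 over left-out libraries. The diet by tissue interaction was called for 41 genes with the animal as a replicate block, 39 with no filter and 259 without the 4 libraries that stood apart. The causes of these differences were not tested. With the replicate block, 22 synthetases differed between tissues under Control, against 21 without it, and 0 were called for the interaction with or without it. Within a tissue each animal gave 1 library, so that no block could be fitted there.

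The cytosolic minus mitochondrial median of log2 fold changes ran over all alternatives from 0.16 to 0.29 in liver, from 0.00 to 0.23 in BAT, from -0.63 to 0.10 in IWAT and from -0.70 to -0.08 in gastrocnemius. Depth limits the genes near 3 counts, such as Tars2 and Aars in IWAT.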
